A study of Mus musculus with 58 samples.

Results

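The 37 mouse genes described here act in G2 and mitosis. They were chosen by symbol, for the step of cell division in which their products work. Of these, 36 were found among the 20177 genes with counts, and Kif20a was not analysed here. They were grouped by role: 7 encode cyclins, Cdk1 and its activating phosphatases, 5 the Polo and Aurora kinases and the chromosomal passenger complex, 5 the spindle checkpoint, 4 the proteins that trigger anaphase, 5 centromere and kinetochore proteins, 6 spindle motors and microtubule-binding proteins, 2 cytokinesis factors and 2 proteins of mitotic chromosome structure.

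The study asked how transcription changes when the H3K4 methyltransferases of the SET1/COMPASS family lose a core subunit, in mouse embryonic stem (mES) cells of the E14 line, which is of 129/Ola origin. DPY30 and RBBP5 are such subunits, shared by all complexes of the family. DPY30–mAID cells carry an auxin-inducible degron on DPY30 and express OsTIR1, which was added to homozygous clones by transfection and hygromycin selection. RBBP5–FKBP cells carry on RBBP5 a tag that dTAG-13 directs to degradation and were sorted as single cells into clonal lines. The third line, called dKO here, is DPY30–mAID in which Kdm5a and Kdm5b, genes for H3K4 demethylases, were also knocked out. The study used 2 clones of dKO cells, the labels do not assign libraries to clones, and a difference between clones cannot be told apart from the spread between replicates. Newly made RNA was followed by SLAM-seq, in which cells were given 100 µM 4-thiouridine (4SU) for 60 min and incorporated 4SU is read as a T>C mismatch. DPY30–mAID cells (auxin) and RBBP5–FKBP cells (dTAG-13) were sampled before treatment (0 h) and after 2, 8 or 24 h, with 3 libraries per time, and dKO cells (auxin) before treatment and after 2, 4, 8, 24 or 48 h, with 2 libraries per time. Quant-seq, which counts the 3′ ends of unlabelled RNA, was made from DPY30–mAID cells grown with 1 µM retinoic acid (RA) and without LIF, together with DMSO or auxin. Those libraries were taken at the start (0 h, DMSO alone), after 8 h and on days 1, 2, 4 and 6, with 2 per group. The study calls the SLAM-seq replicates of all 3 lines biological. The labels do not say whether replicates came from separate cultures, so p-values measure the spread between these samples, and for Quant-seq that spread may be technical.

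Entry into mitosis is driven by Cdk1 bound to cyclins of the A and B types, which CDC25 phosphatases activate, and the Polo and Aurora kinases then build the spindle and correct its attachments. The spindle checkpoint holds back the anaphase-promoting complex until kinetochores are attached. That complex, with Cdc20 and the E2 enzyme Ube2c, then marks securin (Pttg1) and cyclin B for destruction, which frees separase (Espl1) to cut cohesin. Most of these genes are transcribed late in the cycle, through CCAAT boxes and the cell cycle genes homology region (CHR), where B-MYB and FOXM1 act with the MuvB proteins and where the DREAM complex represses them in resting cells. mES cells divide fast with a short G1 phase and leave that mode of division as they differentiate. In bulk samples such as these, fewer cells in G2 or mitosis and less RNA per cell cannot be told apart.

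The promoters of the genes were searched for these elements, because they are what the members are known to share in regulation. RefSeq promoter windows of GRCm38.p6, from 250 bases before to 50 after each start, were matched by symbol for 31 of the 37 genes, and those of Cdc25c, Ccna2, Aurkb, Tpx2, Incenp and Kif20a were not analysed here. CCAAT, on either strand, was found in 23 of 31 genes (74.2%) and in 41.1% of all 27025 genes with a window. TTTGAA, the common form of the CHR, was found on either strand in 22 of 31 (71.0%) against 20.2% of all genes, and TTCGAA in 4 of 31 against 1.80%. Both a CCAAT and a CHR stood in 1 window of 21 of 31 genes (67.7%), against 8.61% of all genes, and no CCAAT match overlapped a CHR match. Of the 38 CHR matches, 18 began between 60 bases before and 20 bases after the start. These are matches of letters and not shown sites. The stretches around the CHR are given for genes to which the results return, with the motif in capitals, and in those of Ube2c and Bub3 it lies on the other strand and reads TTCAAA. Ccnb1 is added as a cyclin gene whose window held CCAAT and no CHR.
Cdk1, chr10:69352910-69352939, minus strand: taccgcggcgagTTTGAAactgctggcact
Plk1, chr7:122159453-122159482, plus strand: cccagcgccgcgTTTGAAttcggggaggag
Aurka, chr2:172370521-172370550, minus strand: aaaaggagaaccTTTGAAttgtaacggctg
Cenpa, chr5:30666890-30666919, plus strand: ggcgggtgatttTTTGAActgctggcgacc
Kif23, chr9:61946780-61946809, minus strand: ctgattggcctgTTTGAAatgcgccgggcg
Espl1, chr15:102296254-102296283, plus strand: tcactagggataTTTGAAaggaggtgctgg
Cenpf, chr1:189688067-189688096, minus strand: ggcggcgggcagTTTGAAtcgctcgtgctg
Ube2c, chr2:164769888-164769917, plus strand: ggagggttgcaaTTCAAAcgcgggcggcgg
Bub3, chr7:131560315-131560344, plus strand: gagccgttggcgTTCAAAatcagccaatga
Ccnb1, chr13:100786537-100786565, minus strand: gccacgaactggCCAATgaggagcgagcg

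The libraries held 2013350 to 2806821 counted reads in DPY30–mAID, 1721185 to 2852331 in RBBP5–FKBP, 5931269 to 7792404 in dKO and 1264241 to 2543632 in Quant-seq cells. Of these, 5.51 to 16.1% were T>C reads in DPY30–mAID, 4.85 to 10.1% in RBBP5–FKBP, 2.04 to 5.27% in dKO and 0.303 to 0.388% in the unlabelled Quant-seq libraries. Reads of the dKO and Quant-seq libraries covered 11.2 to 11.9 T per read, fewer than in the other lines, so T>C shares are compared only within a line. The 2 DMSO libraries of RA day 6 were identical and entered as 1. The 8 ES cell markers summed to 5980 to 9438 CPM (counts scaled to a library total of 1000000 reads) in the SLAM-seq libraries and 4 fibroblast markers to at most 45.2 CPM in any library. Kdm5a and Kdm5b RNA was lower in dKO than in DPY30–mAID libraries (26.0 to 40.7 against 61.1 to 107.3 CPM and 109 to 151 against 390 to 946 CPM), although these 3′ counts may lie outside the deleted parts and then check nothing.

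At 0 h the 36 genes summed to 5171 ± 55.4 CPM in DPY30–mAID cells (SD, n = 3), and their T>C reads to 1275 ± 40.0 CPM of all counted reads (SD, n = 3). Of their reads, 24.7% ± 0.826 (SD, n = 3) carried a T>C mismatch, above the 15.9% ± 0.459 (SD, n = 3) of all reads. In RBBP5–FKBP cells the corresponding values were 14.2% ± 1.59 and 9.56% ± 0.523 (SD, n = 3), and in dKO cells 5.90% ± 0.661 and 4.98% ± 0.407 (SD, n = 2). A high T>C share means that much of a gene's RNA had been made within the 60 min of labelling, but it also depends on the number of T in the counted interval. Among genes with at least 100 reads in each 0 h library, the median share of the members was 21.5% in DPY30–mAID cells, where 21 of 29 lay above the 17.1% that was the median of all such genes. In RBBP5–FKBP cells 22 of 30 lay above the median of 9.94%. In dKO cells 17 of 35 lay above the median of 5.33%.

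**Figure D1:**
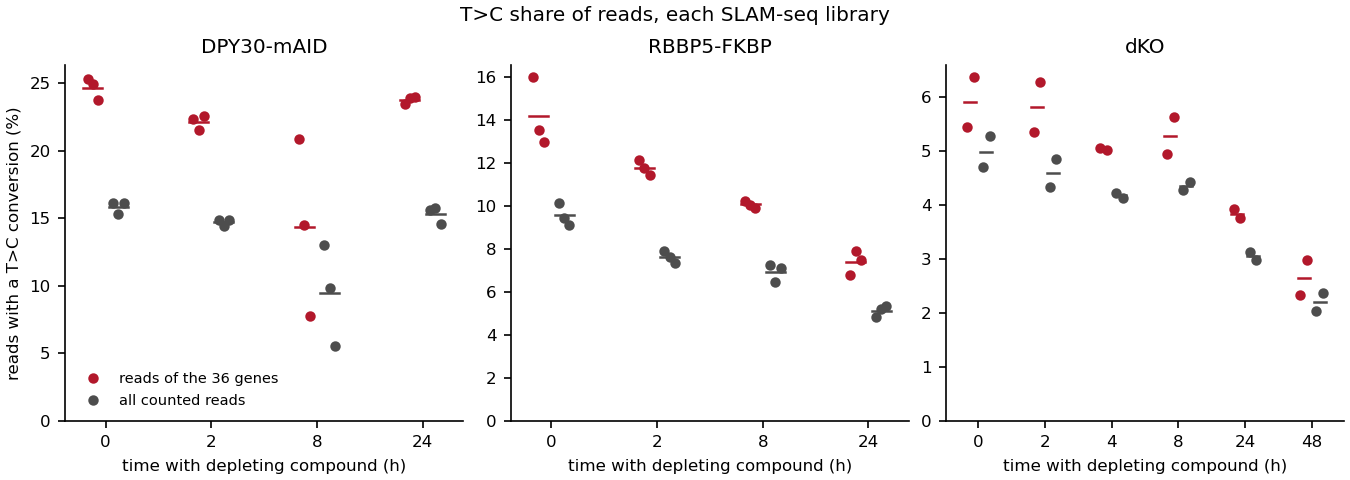
Share of reads with a T>C mismatch (percent, vertical axis) in each SLAM-seq library, for the summed reads of the 36 genes and for all counted reads; points are libraries and dashes are means of a time point. In DPY30–mAID cells the members' share ran from 24.7% at 0 h to 14.4% at 8 h, with 1 library at 7.77%, and was 23.8% at 24 h, and in RBBP5–FKBP and dKO cells it was lowest at the last time point.

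The members differed widely in this share. Before auxin it was, in DPY30–mAID cells, 42.1% ± 4.25 for Aurka, the spindle pole kinase, 40.1% ± 3.297 for Ect2, which directs the cleavage furrow, 34.5% ± 0.417 for Plk1 and 33.2% ± 1.74 for Cdk1 (SD, n = 3 each). Ranges of Aurka and Ect2 over libraries overlapped, as did those of Plk1 and Cdk1. The lowest shares among members with at least 100 reads were those of Pttg1 (securin), 5.88% ± 3.57, and of cyclin B2 (Ccnb2), 9.08% ± 1.59 (SD, n = 3 each). Aurka was again highest (25.4% ± 1.16) and Pttg1 lowest (5.88% ± 0.503; SD, n = 3) in RBBP5–FKBP cells. In dKO cells Anln, an actin-binding protein of the cleavage furrow, stood highest with 13.9% ± 0.859, followed by Ect2 with 12.2% ± 0.548 and Aurka with 11.8% ± 0.611 (SD, n = 2 each).

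Total RNA of single members at 0 h, as a mean over the groups, was 615.0 CPM for Top2a, which untangles sister chromatids, 447.6 for Cdk1, 421.4 for Birc5 (survivin, of the passenger complex), 350.9 for Ube2c, 304.0 for Bub3 of the spindle checkpoint, 233.2 for the kinetochore protein Cenpf, 171.6 for the spindle assembly factor Tpx2 and 160.2 for Ect2. Reads come from 3′ ends only, so these values do not scale with gene length. The means also pool groups that differ. Birc5 was at 254 CPM in DPY30–mAID cells, below Ube2c (313) and Bub3 (319), and at 303 in RBBP5–FKBP cells, below 362 and 336. Cenpf was at 136 CPM in DPY30–mAID and 119 CPM in RBBP5–FKBP cells. Part of the counted reads mapped to several loci, namely 71.0% for Mki67, 61.0% for Cenpf, 60.3% for Nuf2, 33.1% for Ccnb1, 29.8% for Ube2c, 24.2% for Ect2, 16.2% for Mad2l1 and 10.0% for Bub3, and such counts are uncertain. For all reads and for Quant-seq the fits were repeated with reads that mapped to 1 locus, whereas T>C reads are not divided in this way.

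**Figure D2:**
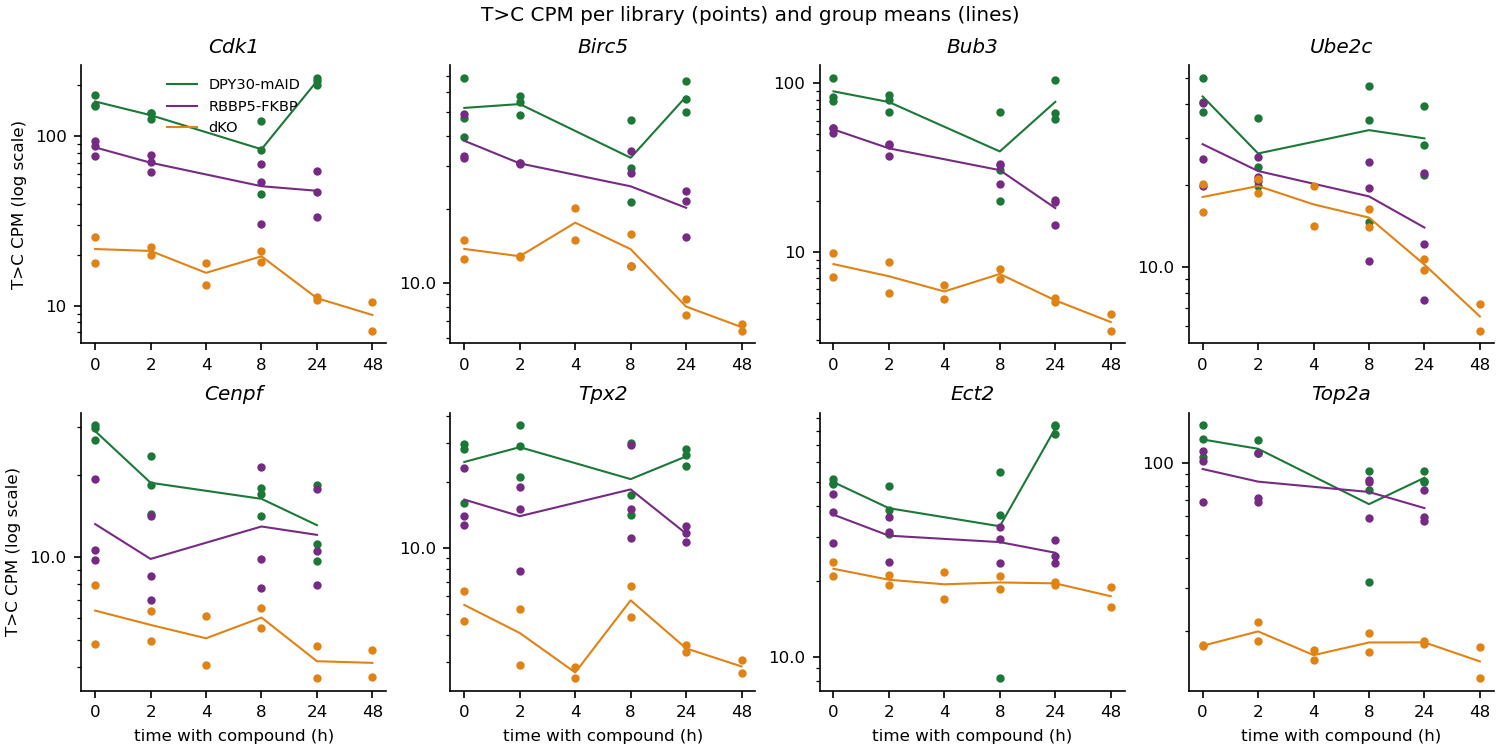
T>C reads as CPM of all counted reads (log axis) of 8 genes, 1 for each role, in every SLAM-seq library by hours of auxin or dTAG-13; points are libraries. In DPY30–mAID cells Cdk1 was at 45.6 to 123 CPM at 8 h and at 202 to 221 CPM at 24 h, above its 0 h libraries.

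For T>C reads, edgeR's quasi-likelihood test was run in 1 fit per line on the whole table, with library sizes from all counted reads, which keeps a fall common to most genes in view. Calls, lower or higher, needed an adjusted p (Benjamini-Hochberg) under 0.05 together with a log2 fold change past 1. Cdc25b and Cdc25c were below the minimum of 10 reads in every line and Cdc20 was also below it in RBBP5–FKBP and dKO cells, which left 34, 33 and 33 members tested. Levels in CPM leave out the TMM factors that enter the fold changes.

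In DPY30–mAID cells, 2 h of auxin left newly made RNA of the members close to 0 h. None of 34 was called lower by edgeR (percent called among all genes, 0.0%), 0 had an unadjusted p below 0.05, and 0 were called by DESeq2. At 8 h, 3 members were called lower against 14.5% of all genes: the checkpoint protein Bub3, Aurka and Cdk1. Their median log2 fold change was −0.61 over 34 members and −0.71 over all genes, and 13 of 34 lay below the latter. T>C reads as a share of the members' reads were 20.9%, 14.5% and 7.77% in the 8 h libraries, and those of all reads 13.0%, 9.82% and 5.51%, so the 8 h libraries differ from each other by as much as from 0 h.

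For Bub3, T>C reads in CPM were 78.1, 108 and 82.95 at 0 h and 67.8, 30.5 and 20.1 at 8 h. The groups did not overlap, and the log2 fold change was −1.28 (standard error 0.34, adjusted p = 0.00712 by edgeR). Aurka was at 63.5, 60.9 and 59.8 at 0 h and at 43.0, 25.6 and 15.5 at 8 h, and Cdk1 was at 152, 154 and 176 against 123, 83.3 and 45.6. Both fell below all their 0 h libraries, Aurka by 1.23 (standard error 0.34, adjusted p = 0.0097) and Cdk1 by 1.04 (standard error 0.29, adjusted p = 0.0118) on the log2 scale. Without the third 8 h library no member was called, as the log2 fold changes were −0.97 for Bub3, −0.93 for Aurka and −0.74 for Cdk1, with adjusted p = 0.0046, 0.00963 and 0.00424. Without the first 8 h library 12 were called, against 29.9% of all genes in that fit, and without the second 1, against 9.22%, while without the third the share of all genes was 7.35%. With TMM factors taken from T>C reads, which remove a change shared by all genes, 0 were called lower and 0 higher.

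At 24 h of auxin, newly made RNA of the members lay on both sides of its 0 h level, with 16 of 34 log2 fold changes below 0 and a median of 0.10. No member was called lower, against 2.75% of all genes, or higher, against 0.807%, by edgeR, 3 were lower and 2 higher at an unadjusted p below 0.05, and DESeq2 called 1 lower. With TMM factors from T>C reads 1 was lower and 1 higher. T>C CPM of Ccnb1, cyclin B1, was 133, 109 and 99.6 at 0 h, 115, 71.2 and 31.9 at 8 h and 226, 195 and 215 at 24 h. Cdk1, its partner kinase, reached 212, 202 and 221 and Ect2 83.8, 83.4 and 77.5, against 51.3, 49.2 and 48.9 at 0 h. In each of these 3 genes all 24 h libraries lay above all 0 h libraries, although none passed the test against 0 h (log2 fold changes 0.88, 0.39 and 0.70). The reverse, with every 24 h library below every 0 h library, held for Plk1, Top2a, Ccna2, Cenpf and Espl1, none of which passed either. Plk1, for example, went from 109, 103 and 91.3 to 62.6, 73.2 and 63.4 CPM. How often all genes separate in this way was not counted.

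Between 8 h and 24 h, a comparison chosen after the values were seen, 8 members were called higher, against 16.1% of all genes. Ccnb1 rose by a log2 fold change of 1.63 (standard error 0.31, adjusted p = 0.000204), Cdk1 by 1.42 (0.29, adjusted p = 0.000528) and Aurka by 1.47 (0.34, adjusted p = 0.00156). Ndc80, which binds microtubules at the kinetochore, rose by 2.32 (0.61, adjusted p = 0.00565) from 11.5, 1.94 and 0 CPM to 26.9, 17.9 and 19.8. The others were Ect2, Mad2l1, Bub3 and the midzone protein Prc1. Without the third 8 h library 4 of the 34 were called, and with TMM factors from T>C reads 2. The 16.1% of all genes is from the fit with all libraries and is not the share in these fits. Over all genes the median change was 0.56, and that of the members was 0.03 below it.

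In RBBP5–FKBP cells 0, 1 and 7 of 33 members were called lower in T>C reads at 2, 8 and 24 h of dTAG-13. Their median at 24 h was −0.73 on the log2 scale and that of all genes −0.91. At 2 h 0 of 33 members were called lower by edgeR (0.147% of all genes), 1 had an unadjusted p below 0.05 and DESeq2 called 0. At 8 h 1 was called, against 5.61%: cyclin A2 (Ccna2), with 30.0, 50.8 and 38.5 CPM at 0 h and 19.0, 12.7 and 22.1 at 8 h. Its groups did not overlap (log2 fold change −1.20, standard error 0.32, adjusted p = 0.0121), but at 24 h its level of 23.9, 21.9 and 28.0 CPM gave −0.73 and did not pass the test. The call at 8 h was lost with TMM factors from T>C reads (−0.73, adjusted p = 0.316), without the second 0 h library (−0.99, adjusted p = 0.10) and without the second 8 h library (−1.02, adjusted p = 0.0852).

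At 24 h, 7 members were called lower, against 22.9% of all genes, and 0 higher, against 0.189%. Kif23, a kinesin of the central spindle, fell most, from 29.1, 23.1 and 18.9 to 1.33, 2.79 and 4.82 CPM, or 3, 6 and 10 reads. Incenp, the scaffold of the passenger complex, fell from 27.7, 17.9 and 20.7 to 1.33, 5.59 and 1.93 CPM, or 3, 12 and 4 reads. Bub3 fell from 54.5, 54.3 and 50.8 to 20.4, 14.4 and 19.8 CPM, and Plk1, the Polo kinase, from 93.8, 81.7 and 86.8 to 35.9, 50.3 and 36.6 CPM. In all 4 genes every 24 h library lay below every 0 h library. Their log2 fold changes were −3.01 (standard error 0.53, adjusted p = 1.29e-05) for Kif23, −2.91 (0.54, adjusted p = 2.92e-05) for Incenp, −1.58 (0.29, adjusted p = 2.57e-05) for Bub3 and −1.12 (0.23, adjusted p = 0.00015) for Plk1.

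The other 3 were Aurka, the centromeric histone Cenpa and Ube2c, with log2 fold changes of −1.20, −1.58 and −1.06. Of the passenger complex, Birc5 fell by 0.93, short of the size threshold, and Aurkb, its kinase, did not pass the test. Differences between these genes were not tested. Tpx2 was at 23.1, 14.02 and 12.7 CPM at 0 h and at 10.6, 11.7 and 12.5 at 24 h, Cenpf at 10.6, 19.3 and 9.80 against 7.97, 17.7 and 10.6, and Top2a at 113, 69.1 and 102 against 57.6, 77.3 and 59.8. None of these 3 passed the test, and their groups overlapped for Cenpf and Top2a. With TMM factors from T>C reads 2 of the 7 calls were made, and leaving out 1 library gave 6 to 10. The share of all genes given for 24 h is from the main fit and does not apply to these counts.

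In dKO cells members were called lower in T>C reads at 24 h and 48 h, as were many other genes. At 2 h, 4 h and 8 h edgeR called 0 of 33 members lower, against 0.0%, 0.201% and 0.704% of all genes, with 2, 8 and 3 at an unadjusted p below 0.05 and 0 by DESeq2 at each time. At 24 h 7 were called lower, against 27.5% of all genes, and with TMM factors from T>C reads 1 lower and 1 higher. T>C CPM of Cenpa was 6.03 and 7.44 at 0 h and 2.44 and 0.908 at 24 h, or 17 and 6 reads. Cdk1 went from 17.9 and 25.4 to 11.4 and 10.9 CPM, separase (Espl1) from 9.12 and 8.86 to 4.60 and 2.73, and Ccna2 from 15.2 and 14.2 to 9.35 and 5.90. The libraries of the groups did not overlap in these 4 genes, whose log2 fold changes were −2.05, −1.03, −1.35 and −1.001 (standard errors 0.39, 0.21, 0.31 and 0.24, adjusted p = 1.66e-05, 7.59e-05, 0.000316 and 0.000553). The remaining calls were Kif2c, a kinesin that depolymerises microtubules, Kif23 and Pttg1.

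At 48 h of auxin, 23 of 33 members were called lower, against 64.4% of all genes, and the median log2 fold change was −1.24 for members and −1.29 for all genes. All 5 checkpoint genes were called, as were 4 of 5 cyclin and Cdk1 genes, 4 of 5 kinase and passenger genes, 5 of 6 spindle genes, 3 of 5 kinetochore genes, 2 of 3 anaphase genes, and neither the cytokinesis nor the chromosome structure genes. Differences between roles were not tested. Among the checkpoint genes, Ttk had 6 and 5 T>C reads at 48 h and Bub1 11 and 8. Kif2c went from 8.09 and 6.80 CPM to 0.610 and 1.93, Ube2c from 15.9 and 20.3 to 5.79 and 7.28, Mad2l1 of the checkpoint from 13.7 and 15.9 to 4.42 and 5.64 and Ccna2 from 15.2 and 14.2 to 4.57 and 5.64. Every 48 h library lay below both 0 h libraries in these 4 genes, with log2 fold changes of −2.61, −1.56, −1.64 and −1.61 (standard errors 0.39, 0.23, 0.25 and 0.25, adjusted p = 1.45e-08, 2.03e-08, 2.88e-08 and 9.05e-08). Bub1b (BubR1) had the lowest value, −3.46, from 13 and 24 reads to 1 and 2.

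Other members moved less at 48 h. Ect2 was at 23.8 and 21.1 CPM at 0 h and 15.8 and 19.0 at 48 h (log2 fold change −0.45, adjusted p = 0.0332), and Top2a at 17.4 and 17.2 against 12.7 and 17.1 (−0.30, adjusted p = 0.17). Mki67, Anln, Cenpe, Kif11 and Pttg1 did not pass the test either, with −0.70, −0.55, −0.52, −0.56 and −0.42. Scaled by TMM factors from T>C reads, which set a change shared by all genes to 0, 1 member, Kif2c, was called lower and 0 higher, and of the 23 called, 10 changed sign (Birc5, Aurkb, Nusap1, Bub1, Tpx2, Plk1, Ccnb2, Ttk, Prc1 and Bub3).

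**Figure D3:**
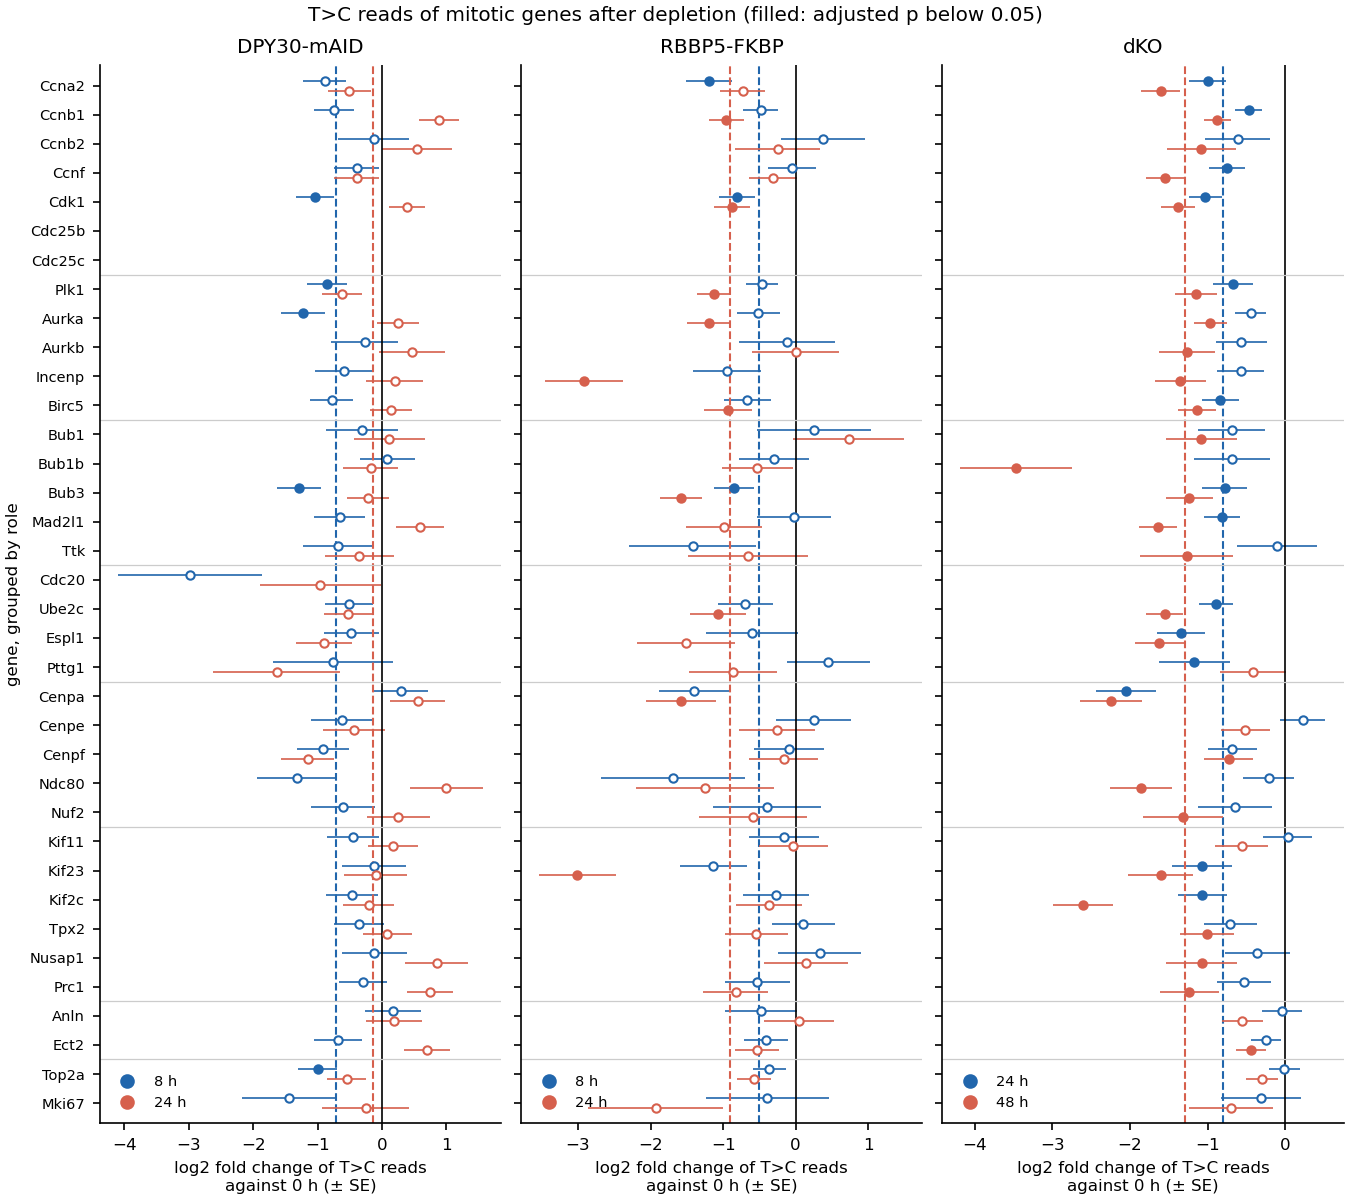
Log2 fold change of T>C reads against 0 h (horizontal axis, with standard errors) for each tested member, ordered by role, at 8 h and 24 h in DPY30–mAID and RBBP5–FKBP cells and at 24 h and 48 h in dKO cells; filled points have an adjusted p below 0.05 and dashed lines are the medians of all genes at the time of the same colour. Members lay on both sides of those medians, with Kif23 and Incenp lowest in RBBP5–FKBP at 24 h and Bub1b in dKO at 48 h, and in dKO cells 4 of the members that passed at 24 h and 14 at 48 h changed sign when TMM factors came from T>C reads.

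The effect of 24 h of auxin was then compared between dKO and DPY30–mAID cells as a difference of log2 fold changes in 1 fit. The median difference was −0.68 over all genes and 0.03 lower over the members, and 2 members were called, against 2.38% of all genes. Cenpa differed by −2.58 (standard error 0.65, adjusted p = 0.0224): its T>C CPM went from 16.6, 14.6 and 18.5 to 28.9, 32.0 and 12.9 in DPY30–mAID cells, where the 24 h libraries lay on both sides of 0 h, but fell in both dKO libraries. Cdk1 differed by −1.40 (0.39, adjusted p = 0.0394), with all libraries above 0 h in DPY30–mAID and all below in dKO cells. Ccnb1 differed by −1.34 with an adjusted p of 0.0502. With TMM factors from T>C reads neither passed the test (−1.92, adjusted p = 0.0523 for Cenpa and −0.74, adjusted p = 0.117 for Cdk1), whereas DESeq2 called 4 members. At 2 h 0 members were called (0.0% of all genes lower), with 1 lower and 0 higher at an unadjusted p below 0.05. At 8 h the median difference was 0.53 over all genes and 0.41 over the members, and 0 were called higher, against 0.304% of all genes, with 4 at an unadjusted p below 0.05. DESeq2 called 0 at both times. Without the first 8 h library of DPY30–mAID cells 5 members were called higher at 8 h, against 9.04% of all genes in that fit.

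In total reads of these lines few members were called. At 8 h of auxin in DPY30–mAID cells 1 of 36 members was called higher, against 2.26% of all genes: the phosphatase gene Cdc25b, from 6.35, 6.41 and 11.6 to 29.0, 23.7 and 15.9 CPM (log2 fold change 1.38, standard error 0.42, adjusted p = 0.0221). The groups did not overlap, but the level was low and the call was lost without either of the first 2 libraries of 0 h or of 8 h. In RBBP5–FKBP cells at 8 h 1 member was called lower, against 2.1%: Kif23, from 217, 183 and 199 to 111, 92.8 and 94.0 CPM (−1.05, standard error 0.18, adjusted p = 0.000419). All 8 h libraries of Kif23 were below its 0 h and 2 h libraries. At 24 h it was at 110, 180 and 134 CPM, while Incenp had fallen by 0.57 (adjusted p = 0.0279) from 159, 136 and 166 to 117, 105 and 95.9 CPM.

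At 24 h of auxin in DPY30–mAID cells no member was past the size threshold in total reads (14 were higher and 5 lower at an unadjusted p below 0.05, and DESeq2 called 0), but 11 of 36 passed the test in the higher direction, against 15.9% of all genes, and 4 in the lower, against 17.1%. Ccnb1 rose from 385, 374 and 337 to 600, 587 and 618 CPM (log2 fold change 0.71, standard error 0.10, adjusted p = 3.51e-07), and Ect2 from 122, 118 and 135 to 244, 242 and 219 (0.90, standard error 0.13, adjusted p = 3.68e-07). Anln, Mad2l1, Birc5, Ccnb2, Aurkb, Cenpa, Nuf2, Prc1 and Nusap1 rose by 0.42 to 0.87. Ccna2 fell from 307, 297 and 261 to 200, 200 and 170 CPM (−0.61, adjusted p = 4.6e-05), and Ube2c, Mki67 and Plk1 fell by 0.45, 0.65 and 0.40. Cyclins B and A thus moved in opposite directions in the same libraries.

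In dKO cells at 48 h 3 members passed in the higher direction, against 6.72% of all genes, and 1 in the lower, against 7.84%. Mki67, Tpx2 and Top2a rose by 0.44, 0.26 and 0.25, and Kif2c fell by 0.38, from 64.4 and 67.8 to 55.9 and 52.0 CPM. In reads of 1 locus Top2a (0.24) and Kif2c (−0.39) still passed the edgeR test. Mki67 (0.31, adjusted p = 0.262) and Tpx2 (0.23, adjusted p = 0.0624) did not, and Cdk1 passed in the lower direction (−0.23, adjusted p = 0.0439). Top2a went from 554 and 487 to 700 and 616 CPM in total reads, while its T>C reads did not pass the test.

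RA without LIF makes mES cells leave pluripotency, and in DMSO the summed RNA of the 36 genes declined from 7413 CPM at 0 h to 6260 at day 1 and 4935 at day 4 (means of 2 libraries, SD 197, 173 and 72.1), with 5399 CPM in the single library of day 6. Over the same days the 8 ES cell markers summed to 6940 to 7144 CPM at 0 h, 7412 to 7540 at day 1, 3382 to 3397 at day 4 and 1742 at day 6, and 5 primitive endoderm markers went from 29.9 to 30.9 up to 3631 CPM. The 8 RA-responsive and neural markers went from 108 to 115 CPM at 0 h to 1480 to 1586 at day 1, and 4 trophectoderm and epithelial markers from 31.1 to 34.0 up to 1664 at day 6. The part of these cell types in the results below was not tested. At 8 h edgeR called 0 members lower, against 3.03% of all genes, and 0 higher, against 3.47%, with 10 and 6 at an unadjusted p below 0.05 and 0 by DESeq2. Cdk1 rose from 588 and 656 to 1025 and 892 CPM (log2 fold change 0.68, adjusted p = 5.1e-05), short of the size threshold. At any size 7 members passed in the lower direction, against 9.4% of all genes, and 2 in the higher, against 8.94%. Kif23 had the lowest value, from 76.2 and 68.8 to 41.3 and 34.0 CPM (−0.89, adjusted p = 0.000389), and Plk1, Incenp, Bub1b, Espl1, Mki67 and Ccnb1 fell by 0.29 to 0.59. Besides Cdk1, Ube2c passed with 0.55 in all reads and was at −0.0455 in reads of 1 locus. In those reads Mki67 did not pass the edgeR test (−0.55, adjusted p = 0.24). Cenpf passed there in the lower direction (−0.42, adjusted p = 0.0268) and Nuf2 in the higher (0.75, adjusted p = 0.0158).

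**Figure D4:**
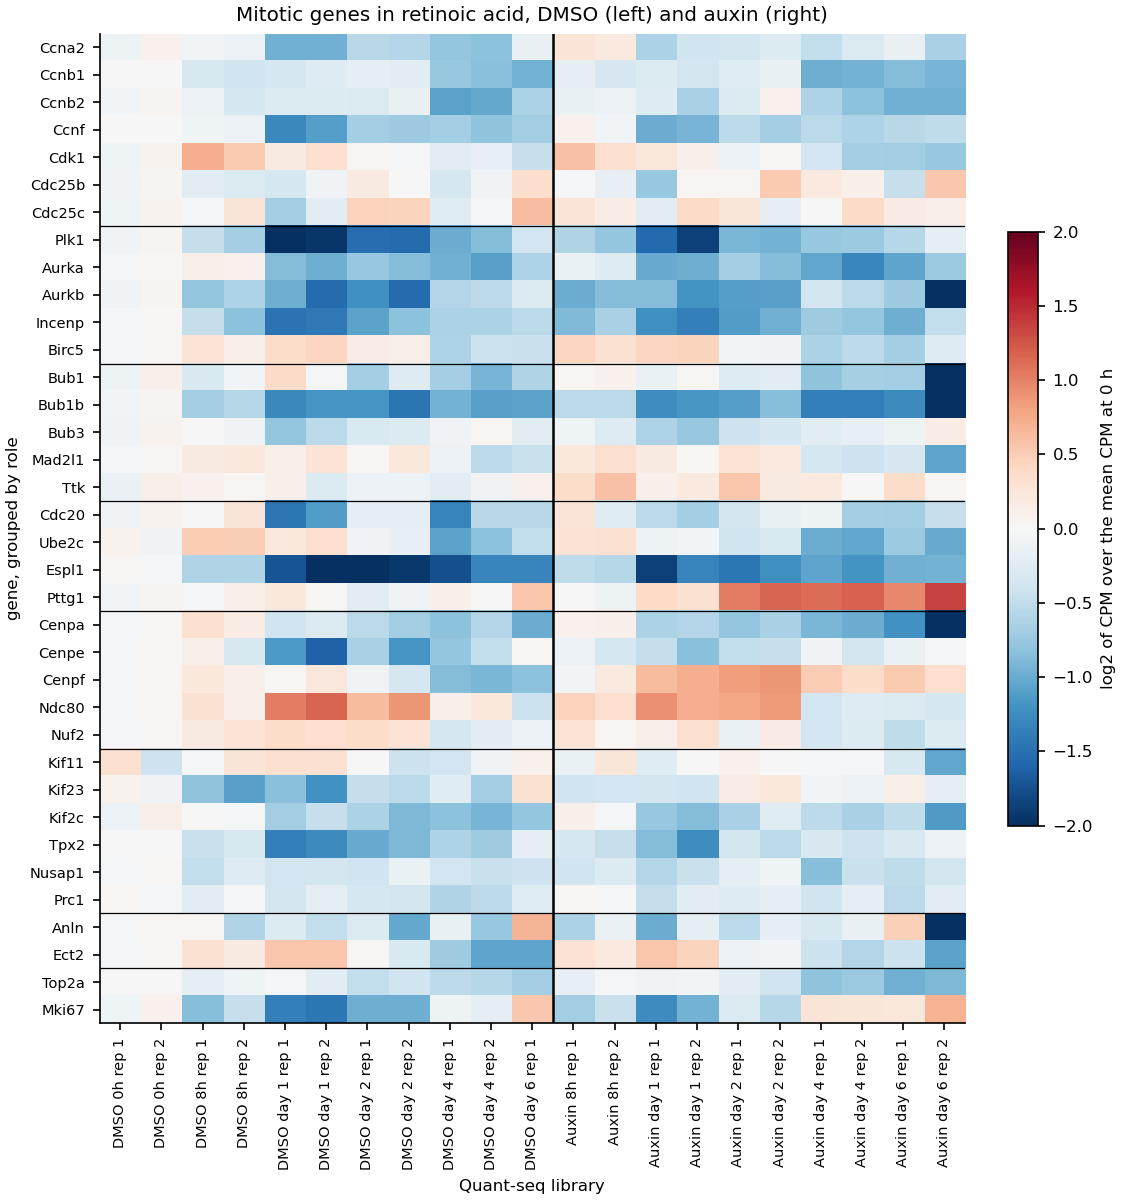
Log2 ratio of each member's CPM to its mean at 0 h (colour), for 36 genes by role in the 21 Quant-seq libraries, DMSO on the left and auxin on the right, by time of RA; values below −2 are drawn at −2. Plk1 and Espl1 were low at day 1 and day 2 in both treatments, while Birc5 and Ect2 were above 0 h at day 1 and below it at day 4 and day 6.

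After 1 day of RA with DMSO 10 of 36 members were called lower, against 12.3% of all genes, and 1 higher, against 17.1%. Plk1 fell from 519 and 566 to 125 and 142 CPM, Espl1 from 121 and 117 to 35.8 and 28.6, Tpx2 from 222 and 219 to 85.7 and 90.9 and Ccnf, a cyclin that acts in a ubiquitin ligase, from 160 and 159 to 65.1 and 74.4. In each of these genes both day 1 libraries lay well below both 0 h libraries. The log2 fold changes were −2.02, −1.87, −1.31 and −1.18 (standard errors 0.13, 0.17, 0.13 and 0.12, adjusted p = 2.07e-12, 1.26e-09, 5.2e-09 and 1.22e-08). Incenp, Bub1b, Mki67, Cenpe, Cdc20 and Aurkb fell by 1.22 to 1.44. Ndc80 rose from 46.6 and 48.8 to 97.1 and 107 CPM (1.10, standard error 0.15, adjusted p = 6.3e-07), and Ect2 and Birc5 also passed the test with 0.57 and 0.41. Genes of the same structure thus differed, as Cenpe and Ndc80 did at the kinetochore and Incenp and Birc5 in the passenger complex.

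At day 2 7 members were called lower, against 9.97% of all genes: Plk1, Espl1, Bub1b, Tpx2, Incenp, Aurkb and Mki67. Espl1 was at 29.9 and 31.2 CPM (log2 fold change −2.03, adjusted p = 2.2e-10) and Plk1 at 188 and 187 CPM (−1.61, adjusted p = 7.2e-11). Bub1b was at 92.7 and 76.5 CPM against 202 and 218 at 0 h (−1.39, adjusted p = 8.3e-09). All 3 remained below 0 h at day 4. In reads of 1 locus the number called at day 2 was also 7, with Cenpf added and Tpx2 at −0.99.

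At day 4 the log2 fold change of all 36 members was negative. Of these, 27 passed the test, against 26.5% of all genes, and 10 were also past the size threshold, against 11.1%. The median was −0.77 for members and 0.04 for all genes. Ube2c went from 434 and 396 to 199 and 235 CPM, Aurka from 169 and 179 to 89.7 and 81.6, Cenpf from 431 and 453 to 242 and 236 and Espl1 from 121 and 117 to 35.1 and 47.6. No library of day 4 reached its 0 h level in these genes, and the log2 fold changes were −1.12, −1.20, −1.07 and −1.71 (standard errors 0.10, 0.13, 0.11 and 0.16, adjusted p = 4.58e-10, 1.3e-08, 3.13e-09 and 1.43e-09). Plk1, Bub1b, Ccnb2, Ect2, Kif2c and Cdc20 were the other 6. Every role was represented among the genes that passed, with 5 of 7 cyclin and Cdk1 genes, 5 of 5 kinase and passenger genes and 5 of 6 spindle genes.

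At day 6, where the single DMSO library was tested with the spread of the other groups, 25 members passed in the lower direction, against 25.9% of all genes, and 6 were called, against 14.4%. Ccnb1 was at 273 CPM against 520 and 529 at 0 h (log2 fold change −1.14, standard error 0.12, adjusted p = 6.61e-09), Espl1 at 47.6 against 121 and 117 (−1.52, 0.20, adjusted p = 4.77e-07) and Bub1b at 100 against 202 and 218 (−1.26, 0.18, adjusted p = 9.84e-07). Ect2 and Cenpa were called with −1.25 and −1.20, and Cenpf with −1.01, which did not hold in reads of 1 locus. Top2a fell short of the size threshold, at 396 CPM against 641 and 633 (−0.88, adjusted p = 8.66e-07). Without TMM factors the lower calls numbered 4, 4 and 3 at days 2, 4 and 6. The shares of all genes given for these days belong to the fit with TMM factors.

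After day 1 the members took different courses. In comparisons with day 1 that were chosen after the values were seen, 6 members were called lower at day 4, against 13.3% of all genes, and 1 higher, Mki67, against 15.9%. The lower ones were Ube2c, Ect2, Birc5, Ndc80, Bub1 and Cenpf, of which 2 were not called lower in reads of 1 locus. There Cenpf turned from −1.21 to 0.68 (adjusted p = 0.000709) and Ube2c went from −1.41 to −0.50 (adjusted p = 0.00181), with 68.5% of its reads at day 1 mapping to several loci. At day 6 5 were lower, against 18.6%, and 4 higher, against 22.5%. Ect2 fell from 224 and 223 CPM at day 1 to 72.7 at day 6 (log2 fold change −1.82, standard error 0.18, adjusted p = 4.54e-09) and Ndc80 from 97.1 and 107 to 35.2 (−1.73, 0.20, adjusted p = 2.73e-08). Plk1 rose from 125 and 142 to 415 (1.44, 0.15, adjusted p = 1.31e-08) and Mki67 from 31.5 and 29.8 to 117 CPM (1.73, 0.22, adjusted p = 1.48e-07). Kif23 and Cenpe also rose, by 1.11 and 1.19. Without TMM factors 3 were lower and 2 higher at day 4, and 2 lower and 7 higher at day 6. The shares of all genes printed above are from the fit with TMM factors and do not apply to these counts.

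Among comparisons in which a member passed the test with all reads, leaving out reads that map to several loci changed the sign for Cenpf and Ube2c. With reads of 1 locus Cenpf was at 130 and 135 CPM at 0 h, 44.5 and 40.2 at day 1, 70.3 and 85.3 at day 4 and 143 at day 6. Its log2 fold change was −1.63 at day 1 (adjusted p = 4.68e-10) in place of 0.14, −1.36 at day 2 (adjusted p = 4.8e-09) in place of −0.28, −0.95 at day 4 (adjusted p = 7.71e-07) in place of −1.07, and −0.11 at day 6 (adjusted p = 0.555) in place of −1.01. Reads mapping to several loci made up 70.1% of the Cenpf reads at 0 h, 91.3% at day 1 and 43.2% at day 6. Ube2c was at 262 and 237 CPM at 0 h and 158 and 161 at day 1 in reads of 1 locus, a fall of 0.63 (adjusted p = 8.63e-05), while all reads gave 0.29. For Cenpf, day 6 against day 1 was 1.51 in reads of 1 locus (adjusted p = 1.78e-08) in place of −1.15. Plk1 also rose from day 1 to day 6 in those reads, by 1.37 (adjusted p = 4.84e-08), but was still below 0 h at day 6 (−0.59, adjusted p = 0.00255).

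**Figure D5:**
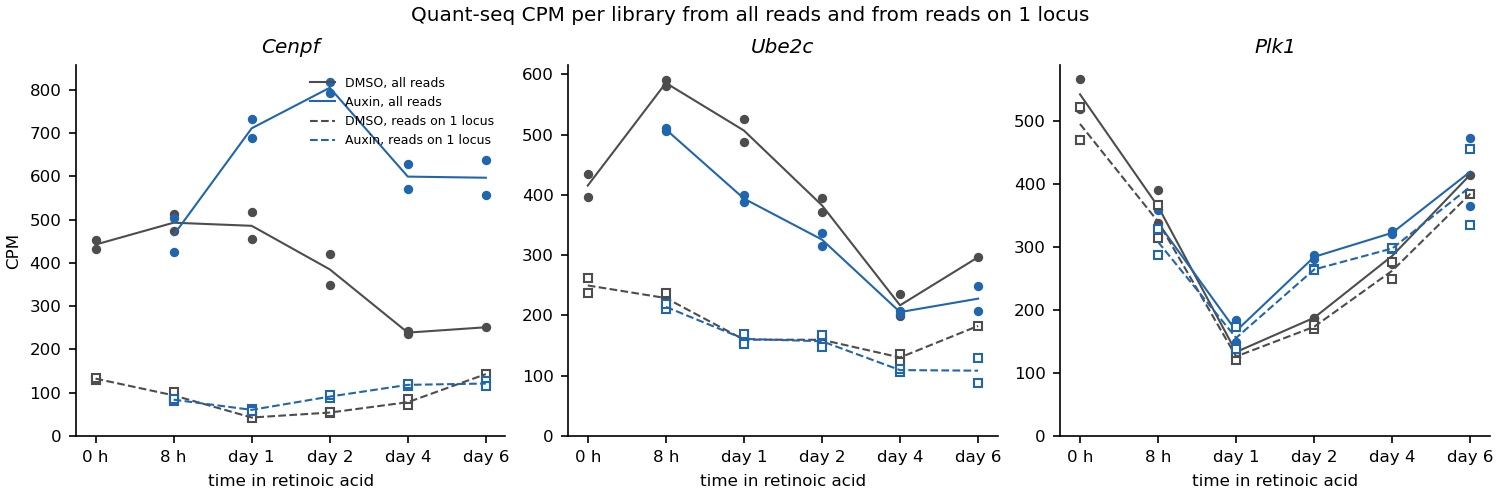
CPM of Cenpf, Ube2c and Plk1 by time of RA in DMSO and auxin, from all reads and from reads that mapped to 1 locus; points are libraries. For Cenpf the auxin libraries of day 4 stood at 571 to 628 CPM against 236 to 242 in DMSO with all reads, and at 115 to 121 against 70.3 to 85.3 with reads of 1 locus, and at day 6 the sign of the difference changed.

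Auxin, which depletes DPY30 during differentiation, was compared with DMSO at each time. At 8 h and day 1 edgeR called 0 of 36 members in either direction, against 0.149% of all genes lower and 0.0175% higher at 8 h and 1.54% and 0.894% at day 1. At an unadjusted p below 0.05 there were 3 lower and 1 higher at 8 h and 1 lower and 7 higher at day 1, and DESeq2 called 0. At any size 1 member passed lower at day 1, against 3.49% of all genes, and 3 higher, against 3.52%. These were Ube2c (−0.35, and 0.0353 in reads of 1 locus), Kif23 (0.63), Cenpf (0.56) and Ccna2 (0.47). In reads of 1 locus Cenpf did not pass the edgeR test either (0.53, adjusted p = 0.0543). At day 2 1 was called higher, against 2.71% of all genes: Pttg1, securin, at 256 and 282 CPM with auxin and 108 and 121 with DMSO (log2 fold change 1.12, standard error 0.13, adjusted p = 1.42e-06). Pttg1 stood at 272 and 287 against 135 and 125 CPM at day 4 (0.89, standard error 0.13, adjusted p = 1.68e-05) and at 245 and 320 against 186 at day 6 (0.41, adjusted p = 0.072). The auxin libraries lay above the DMSO libraries at these 3 times, and 0.0605% of the Pttg1 reads mapped to several loci.

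At day 4 1 member was called higher, against 4.42% of all genes, and at day 6 again 1, against 4.21%. It was Cenpf both times, with 628 and 571 against 242 and 236 CPM at day 4 (log2 fold change 1.12, adjusted p = 1.42e-08) and 637 and 557 against 251 at day 6 (1.05, adjusted p = 1.91e-06). In reads of 1 locus the difference was 0.39 (adjusted p = 0.0562) at day 4 and −0.42 (adjusted p = 0.0722) at day 6, so neither call was made and the second changed sign. At day 2 it was 0.64 (adjusted p = 0.00445) in those reads and 0.96 in all reads.

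In the lower direction 7 members passed at day 4, against 11.5% of all genes, and 8 at day 6, against 12.2%. Cdk1 was at 478 and 388 CPM with auxin and 539 and 557 with DMSO at day 4 (−0.55, adjusted p = 0.000843) and at 384 and 367 against 450 at day 6 (−0.46, adjusted p = 0.0214). Top2a was at 366 and 381 against 443 and 431 at day 4 (−0.44, adjusted p = 0.00235) and at 327 and 343 against 396 at day 6 (−0.44, adjusted p = 0.0117). Cenpa and Bub1b passed at both days as well. With all reads and libraries Aurkb at day 6 was the 1 member called lower, against 5.97% of all genes, with 33.0 and 10.3 CPM against 44.5 (−1.20, standard error 0.32, adjusted p = 0.00804). Its value rested on the second auxin library of day 6, the shallowest of all with 1264241 reads: without it the difference was −0.67 (adjusted p = 0.0892), and without the first −2.26. Lower calls at day 6 numbered 6 without the first auxin library, against 11.1% of all genes in that fit, and 2 in reads of 1 locus, where the kinetochore gene Nuf2 was added (−1.11, adjusted p = 0.0154). Without TMM factors 0 were lower and 1 higher at day 6. At day 6 the primitive endoderm markers summed to 680 to 766 CPM with auxin and 3631 with DMSO, and the ES cell markers to 1869 to 1903 and 1742, and their part in these differences was not tested.

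Other genes of division were counted from lists for comparison. Of 33 genes of G1/S and DNA replication 20 were called lower at day 4 and 23 at day 6 of RA with DMSO, with medians of −1.11 and −1.32, beside −0.77 and −0.64 for the 36 members and shares of all genes called lower of 11.1% and 14.4%. Of 91 other G2/M genes tested, among them the anaphase-promoting complex, condensin and cohesin, 11 and 13 were lower, near those shares, with medians of −0.47 and −0.36. Of 10 inhibitors of the cycle 4 were higher at day 4 and 7 at day 6, against 19.6% and 22.6% of all genes. In T>C reads of dKO cells at 48 h, 28 of 29 G1/S genes and 57 of 85 other G2/M genes were called lower, beside 64.4% of all genes, with medians of −1.58 and −1.27 against −1.24 for the members. In RBBP5–FKBP cells at 24 h it was 12 of 31 and 8 of 71, beside 22.9% of all genes, and in DPY30–mAID cells at 8 h 5 of 32 and 7 of 83, beside 14.5%.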

How the data were processed

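The authors deposited SlamDunk count files for 46420 annotated 3′ UTR intervals (annotation vM14, GRCm38), with raw counts of all reads, of T>C reads and of reads that mapped to several loci per library. Per the file headers SlamDunk also made the Quant-seq counts, whereas the methods name HISAT and featureCounts. The deposited T>C counts include reads with 1 conversion, since the mean per T>C read was at most 1.32, and the filter for more conversions in the methods was not repeated. No molecular identifiers were used.

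Counts were summed per Ensembl gene, with symbols from GENCODE vM21. Groups came from the labels. edgeR 4.0.16 (R 4.3.3, quasi-likelihood test, Benjamini-Hochberg over all genes tested) was fitted per line, leaving out genes whose group means were all under 10 reads, with library sizes and TMM factors of all reads. The script was tested on simulated data. DESeq2 1.42.0 and other settings were alternatives. Tables and figures used Python 3.11.15, pandas 2.3.3, numpy 2.4.6 and matplotlib 3.10.9.

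The members, the lists and the roles were chosen with earlier results of these data known. Library values are printed for 1 gene per role (Cdk1, Birc5, Bub3, Ube2c, Cenpf, Tpx2, Ect2 and Top2a) and for up to 4 members with the lowest adjusted p in a comparison with calls, and other genes given with values were picked after these were seen.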

Additional observations from a re-analysis of the deposited data

Results flagged for a closer look

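The change of T>C reads over 24 h of auxin differed between dKO and DPY30–mAID cells for 2 members by the test of the difference. The difference was −1.40 for Cdk1 and −2.58 for Cenpa on the log2 scale, with adjusted p = 0.0394 and 0.0224 in edgeR's quasi-likelihood test, beside a median difference of −0.68 over all genes. DESeq2 gave −1.43 (adjusted p = 0.0105) and −2.63 (adjusted p = 0.0073). Leaving out single libraries gave −1.10 to −1.68 for Cdk1 and −2.09 to −3.45 for Cenpa, and neither passed the test without the second 0 h library or without either 24 h library of dKO cells (Cdk1 −1.10, −1.43 and −1.41, Cenpa −2.40, −3.45 and −2.09). Cdk1 also did not pass without replicate 1 or 2 of 0 h or replicate 2 or 3 of 24 h in DPY30–mAID cells (adjusted p = 0.058, 0.0632, 0.0532 and 0.0587), nor Cenpa without the second 24 h library (adjusted p = 0.0532). The part of the lower T>C share and the other read length of the dKO libraries was not tested.

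T>C reads of the members were also counted in the unlabelled Quant-seq libraries, which no comparison of T>C reads used. They made up at most 0.326% of the members' reads in any library, beside 2.33% or more in every SLAM-seq library.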

How the results depend on the processing

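TMM factors from T>C reads changed most counts of called members: lower calls went from 3 to 0 in DPY30–mAID at 8 h, from 1 to 0 and from 7 to 2 in RBBP5–FKBP at 8 h and 24 h, from 7 to 1 and from 23 to 1 in dKO at 24 h and 48 h, and from 2 to 0 in the difference at 24 h, higher calls from 8 to 2 between 8 h and 24 h, and 1 lower and 1 higher call arose in DPY30–mAID at 24 h, 1 higher in dKO at 24 h and 1 higher in the difference. The sign changed in dKO at 24 h for Plk1 (0.12), Ccnb1 (0.33), Bub3 (0.0214) and Ccnf (0.0466), and at 48 h for Birc5 (0.16), Aurkb (0.0286), Cenpf (0.57), Nusap1 (0.21), Bub1 (0.22), Tpx2 (0.28), Aurka (0.33), Ect2 (0.85), Plk1 (0.15), Ccnb2 (0.22), Ttk (0.0246), Prc1 (0.0692), Ccnb1 (0.42) and Bub3 (0.0723). These factors remove by construction what all genes share. Counts of calls in this paragraph cover the members alone, without the share of all genes in the same fit. DESeq2 gave 1 lower call in DPY30–mAID at 24 h, 2 in RBBP5–FKBP at 8 h and 4 in the difference at 24 h. Without TMM factors Quant-seq gave 4, 4 and 3 lower calls at days 2, 4 and 6 in DMSO, 2, 2 and 0 (higher, higher and lower) for auxin at days 2, 4 and 6, 3 lower and 2 higher for day 4 against day 1 and 2 lower and 7 higher for day 6 against day 1, and without a filter auxin gave 2 lower calls at day 6. In reads of 1 locus, an alternative chosen after seeing the data, auxin gave 0 higher calls at day 4, 0 higher and 2 lower at day 6, DMSO gave 4 lower calls in place of 6 for day 4 against day 1 and 9 in place of 10 at day 4, and, among members that passed with all reads, the sign changed for Ube2c at 8 h (−0.0455), at day 1 (−0.63) and for auxin at day 1 (0.0353), and for Cenpf for auxin at day 6 (−0.42), day 4 against day 1 (0.68) and day 6 against day 1 (1.51). The cause of the other changes was not tested. Leaving out 1 library gave 0 to 12 lower calls in DPY30–mAID at 8 h, 4 to 10 higher between 8 h and 24 h, 0 to 2 and 6 to 10 lower in RBBP5–FKBP at 8 h and 24 h, 4 to 7 and 17 to 24 lower in dKO at 24 h and 48 h, 0 to 5 higher at 8 h and 0 to 2 lower at 24 h in the difference. In all reads it gave 0 to 1 higher in DPY30–mAID at 8 h, 0 to 1 lower and 0 to 1 higher at 24 h and 1 to 2 lower in RBBP5–FKBP at 8 h. In Quant-seq it gave 0 to 1 lower at 8 h, 5 to 7 at day 2, 8 to 12 at day 4 and 5 to 7 at day 6, 1 to 2 higher for auxin at day 2, 1 to 6 lower and 0 to 1 higher at day 6, 5 to 6 lower and 1 to 2 higher for day 4 and 5 to 6 lower and 3 to 5 higher for day 6 against day 1. On average same-numbered libraries did not deviate together, with mean correlations of −0.020 to 0.070 over the fits. Single pairs did reach 0.54 in all reads of dKO cells and 0.47 in Quant-seq. The replicate block gave 1 lower call in dKO at 4 h in place of 0, left 6 gene results no longer past the threshold and 271 as they were, and moved no other count of calls by over 1.5 times.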
